A study of Rattus norvegicus with 9 samples.

Results

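Ferroportin, the iron exporter of mammalian cells, and 9 other genes of iron and haem handling were followed in hepatic macrophages of rats with a narrowed portal vein. The 10 genes were Slc40a1 (ferroportin), the copper ferroxidase Cp, the ferritin chains Fth1 and Ftl1, the haem-degrading enzyme Hmox1 and the biliverdin reductase Blvrb. The others were the haemoglobin receptor Cd163, the transferrin receptor Tfrc, the phagosomal metal transporter Slc11a1 and the transferrin receptor partner Hfe. They were chosen by name, with earlier results of these data known, from the genes that the array annotation pairs with a single symbol. All 10 of the 10 were found among 18166 such genes, and all 10 lay above the filter on low values. The rats were male Sprague-Dawley animals, and the labels name no drug, no engineered allele and no age. In 3 rats the portal vein had been freed at laparotomy without a ligature (sham). In 3 rats the vein had been tied partly closed around a blunt needle (partial portal vein ligation, PPVL), which leaves a stenosis of fixed bore, and macrophages were taken 3 days later. In 3 further rats they were taken after 10 days. The time between the sham operation and cell collection is not given in the labels, so time since surgery and ligation cannot be told apart. Each array held the macrophages of 1 rat liver.

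Macrophages of the liver and spleen clear aged red cells and haemoglobin, open the haem ring with haem oxygenase, and either store the freed iron in ferritin or return it to plasma through ferroportin. Hepcidin, a peptide hormone of hepatocytes, removes ferroportin from the cell surface, and multicopper oxidases such as ceruloplasmin oxidise the exported iron so that transferrin can carry it. Iron regulatory proteins bind stem loops in several of these messenger RNAs, which block translation of ferritin and ferroportin and protect the transferrin receptor message when iron is scarce. Haem also relieves the repressor BACH1, which lets NRF2 raise transcription of Hmox1, the ferritin genes and Slc40a1. Ferritin protein therefore need not follow its messenger RNA, and only RNA was measured here.

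Signals were log2 values of Affymetrix probesets, so a difference of 1 is a doubling of signal. A difference was called when its p-value from limma, fitted to all 9 arrays and adjusted by the Benjamini-Hochberg method over 14014 genes, lay under 0.05. Errors are SD over 3 rats for a level and the standard error of the fit for a difference. Array medians lay between 5.21 and 5.26, and pairs of arrays correlated at 0.987 to 0.993. The arrays had been normalized together, and such correlations mostly carry differences between probesets, so neither figure shows whether an array stood apart. The label was checked against marker genes: the mean signals of Cd68, Csf1r and Lyz2 lay at percentiles 98.8, 96.9 and 99.9 of all probesets. Of the 10 general macrophage markers, Adgre1 (88.3) and Aif1 (82.7) lay lower and Mpeg1 lowest (45.2). The 9 Kupffer cell markers ranged from percentile 31.9 (Vsig4), close to the filter at the 30th, through Timd4 (34.7), Clec4f (46.5) and Marco (50.6) to percentile 73.0 (Fcna). The T cell marker Cd3e (94.0) and the cytotoxic cell marker Prf1 (99.4) were also bright.

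Of the 10 genes only Slc40a1 passed the test, and it did so at 3 days alone. At 3 days 1 of 10 was called, against 401 of all 14014 genes tested (2.86%), and 2 members had an unadjusted p under 0.05, against 2171 of all genes. At 10 days the count was 0 of 10, against 103 genes (0.735%), with 3 members and 2271 of all genes at an unadjusted p under 0.05. Between the days it was 0 of 10, against 10 genes (0.0714%), with 2 members and 1578 of all genes at an unadjusted p under 0.05. The moderated F test over the 3 groups called 1 member, Slc40a1, and 329 genes in all (2.35%). The counts thus rest on ferroportin alone. The median difference of the 10 was 0.20 at 3 days, 0.09 at 10 days and -0.09 from 3 to 10 days, where the medians of all tested genes were -0.01, -0.0004 and 0.01. Both comparisons with sham use the same 3 sham arrays, so they are not independent of each other.

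**Figure D1:**
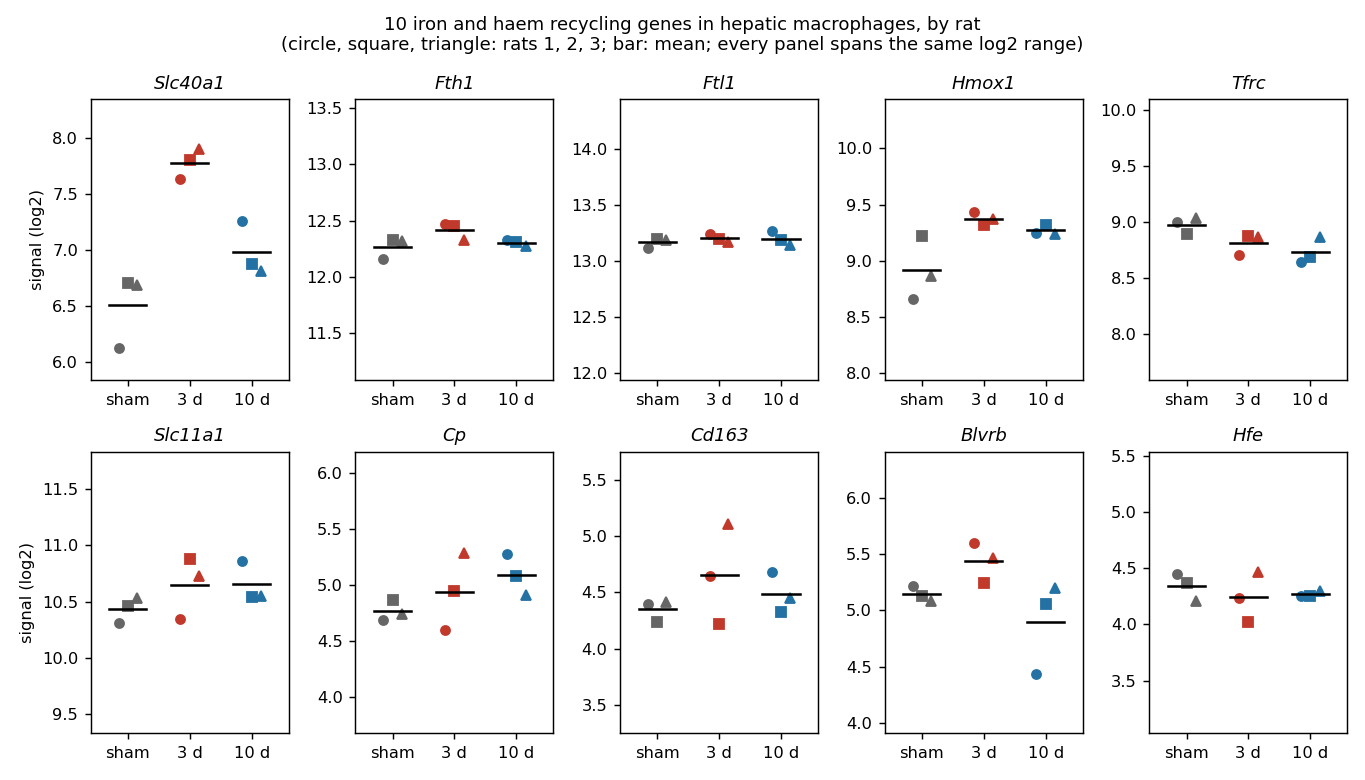
Signal (log2) of each of the 10 genes in each rat, with sham in grey, 3 days in red and 10 days in blue. Circles, squares and triangles are rats 1, 2 and 3, bars are group means, and every panel spans the same log2 range. The 3-day values of Slc40a1, 7.63 to 7.90, lie above all of its other values, and the panels of Fth1 and Ftl1 are nearly flat.

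Slc40a1 (probeset 17864290) measured 6.13, 6.71 and 6.69 in sham rats 1, 2 and 3. It measured 7.63, 7.80 and 7.90 at 3 days, and 7.26, 6.88 and 6.82 at 10 days. Every 3-day rat lay above every 10-day rat, and every 10-day rat lay above every sham rat. The group means were 6.51 ± 0.33, 7.78 ± 0.14 and 6.98 ± 0.24 (SD, n = 3 each). Ferroportin signal thus rose 2.41-fold at 3 days, a difference of 1.27 ± 0.17 with a 95% confidence interval from 0.89 to 1.65 (limma, adjusted p = 0.00507, higher in 3 of 3 rats). By size this was the 21st largest increase of the 14014 genes. At 10 days the difference from sham was 0.48 ± 0.17 (1.39-fold, interval from 0.10 to 0.85) and did not pass the test (limma, adjusted p = 0.203). From 3 to 10 days it was -0.79 ± 0.17 (interval from -1.17 to -0.42), with an unadjusted p of 0.000927 and an adjusted p of 0.180 in limma, so the lower level at 10 days was not called either. Sham rat 1 was the lowest array. Without it the difference at 3 days was 1.08 (adjusted p = 0.00799) and that at 10 days 0.28 (adjusted p = 0.379).

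**Figure D2:**
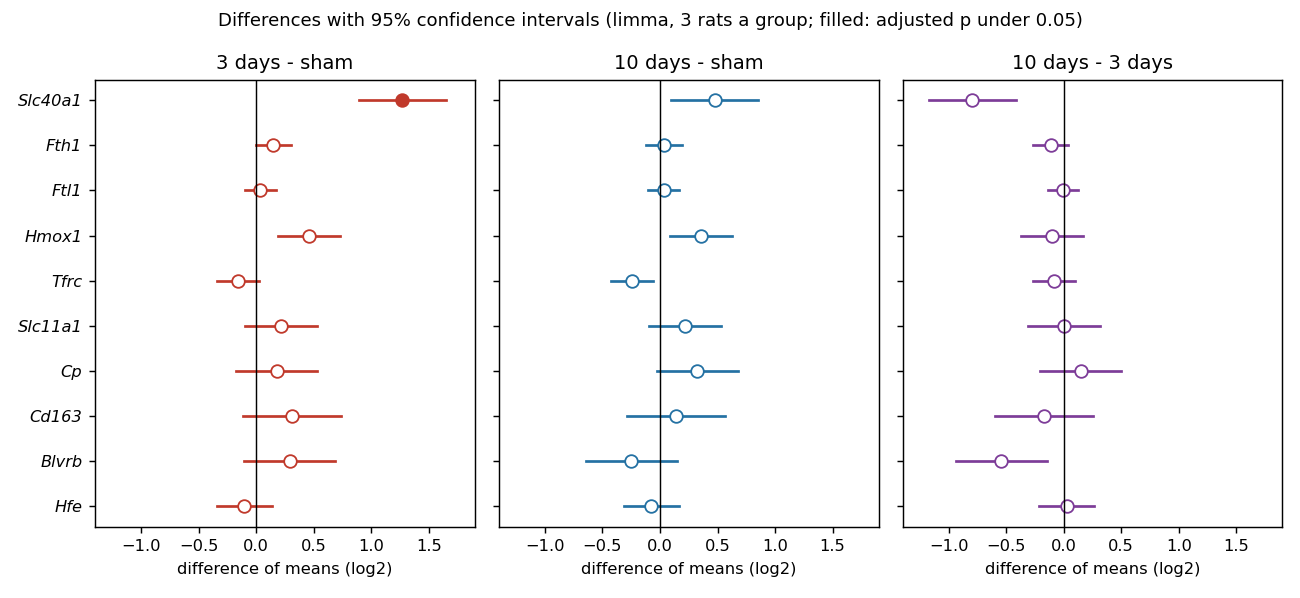
Differences of group means (log2) for the 10 genes with 95% confidence intervals from limma, 3 rats a group: 3 days minus sham (red), 10 days minus sham (blue) and 10 days minus 3 days (purple). A filled point marks an adjusted p under 0.05, which only Slc40a1 reached, at 3 days with 1.27.

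Promoter windows from RefSeq (assembly GRCr8, 250 bases before to 50 after the annotated start) were found for 5 of the 10 genes: Slc40a1, Tfrc, Cp, Cd163 and Blvrb. The 250 bases before the start are shown for the exporter, the gene that passed the test, and for the importer Tfrc, whose group means went the other way. Both lie on the minus strand, Slc40a1 at chr9:55543461-55543710 and Tfrc at chr11:81690319-81690568. Capitals mark a TATA element (TATAA) or a GC box (GGGCGG) on either strand.
Slc40a1: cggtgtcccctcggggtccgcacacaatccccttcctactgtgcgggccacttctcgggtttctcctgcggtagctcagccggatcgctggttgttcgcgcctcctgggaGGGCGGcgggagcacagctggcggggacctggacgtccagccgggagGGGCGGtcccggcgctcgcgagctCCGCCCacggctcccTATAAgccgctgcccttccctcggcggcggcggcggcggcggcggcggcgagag
Tfrc: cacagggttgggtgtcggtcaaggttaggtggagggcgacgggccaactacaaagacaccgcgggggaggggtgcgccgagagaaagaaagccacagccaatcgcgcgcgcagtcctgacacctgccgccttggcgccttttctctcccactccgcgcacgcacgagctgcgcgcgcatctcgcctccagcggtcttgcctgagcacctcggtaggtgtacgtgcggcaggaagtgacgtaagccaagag
The Slc40a1 stretch has 3 GC boxes, which begin 140, 93 and 69 bases before the start, and a TATAA that begins 54 bases before it. RefSeq's record of the Slc40a1 gene extends further upstream than this window, so the start used here need not be the only one, and these distances hold for this start alone. The Tfrc stretch has no capitals, and the only GC box of its window lies downstream of the start. Over the windows of all 33469 promoters, 33.1% hold a GC box and 26.2% a TATAA. The other motifs searched on both strands were an E-box (CACGTG, 6.42% of promoters), the antioxidant response element core (TGACNNNGC, 12.1%) and a PU.1 core (GAGGAA, 27.6%), and neither Slc40a1 nor Tfrc holds one. The TATAA and GC box letters in Slc40a1 do not overlap each other. Guanine and cytosine made up 72.0% of the Slc40a1 window and 67.0% of the Tfrc window, where the median promoter had 51.7%. These are matches of letters in a short window, and no binding was measured.

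The ferroxidase that works beside ferroportin did not pass the test. Cp, ceruloplasmin (probeset 17737360), measured 4.69, 4.86 and 4.74 in sham, 4.59, 4.94 and 5.28 at 3 days, and 5.27, 5.08 and 4.91 at 10 days. All 10-day rats lay above all sham rats, while the 3-day rats spread over the whole range. The differences from sham were 0.18 ± 0.16 at 3 days (limma, adjusted p = 0.667) and 0.32 ± 0.16 at 10 days (adjusted p = 0.347). Of the other genes of iron export and of its control by hepcidin, 0 of 9 tested were called in any comparison (limma), and their median difference was -0.06 at 3 days and 0.02 at 10 days. Hepcidin itself (Hamp), named after its values were seen because it had the largest 3-day difference of the list, differed by 0.36 ± 0.17 at 3 days (adjusted p = 0.359) and 0.15 ± 0.17 at 10 days (adjusted p = 0.724). Heph, a membrane ferroxidase related to ceruloplasmin, differed by -0.09 ± 0.09 at 3 days and 0.15 ± 0.09 at 10 days. Tmprss6, a protease that lowers hepcidin production, differed by -0.06 ± 0.14 and -0.34 ± 0.14 (adjusted p = 0.902 and 0.277).

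The ferritin chains, which form the shell that stores iron, hardly moved. Fth1, the heavy chain with ferroxidase activity, measured 12.16, 12.33 and 12.32 in sham, 12.47, 12.45 and 12.33 at 3 days, and 12.33, 12.31 and 12.28 at 10 days (probeset 17880625). Sham rat 2 and 3-day rat 3 were level, so these groups touched, and the 10-day rats lay among the sham rats. At 3 days the difference was 0.15 ± 0.07 (interval from -0.0032 to 0.30, limma, adjusted p = 0.334), and at 10 days 0.04 ± 0.07 (adjusted p = 0.852). A dimmer Fth1 probeset, 17623951, gave 0.07 and 0.09 at these times, so the 2 probesets did not rank the days the same way. Ftl1, the light chain (probeset 17632887), measured 13.12, 13.19 and 13.19 in sham, 13.24, 13.20 and 13.17 at 3 days, and 13.26, 13.19 and 13.14 at 10 days. The 3 groups overlapped throughout. Its differences were 0.04 ± 0.06 and 0.03 ± 0.06, and the 3-day interval, from -0.09 to 0.17, ends far below the 1.27 of Slc40a1. Ftl1 lay close to the brightest value of any array (13.3 to 13.5), and differences of a signal near the ceiling can be compressed. Ferritin genes also have many processed copies in the genome, with which a probeset may share sequence.

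Among the partners of ferritin, 0 of 5 tested genes were called, with a median difference of -0.0008 at 3 days. Timd2, which binds heavy-chain ferritin in mouse, measured 7.29, 6.84 and 6.95 in sham, 7.41, 7.71 and 7.48 at 3 days, and 6.90, 7.11 and 7.29 at 10 days. Its 3-day rats lay above all sham rats. The difference, 0.51 ± 0.14, missed the threshold (limma, adjusted p = 0.0913) but passed it with array weights (0.0342) and without sham rat 1 (0.0477). Scara5, a receptor for light-chain ferritin in mouse, differed by -0.12 ± 0.09 at 3 days and 0.10 ± 0.09 at 10 days.

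Among the members, Hmox1, haem oxygenase 1, which opens the haem ring and frees its iron, came nearest to the threshold after Slc40a1. Its probeset, 17728071, measured 8.66, 9.22 and 8.87 in sham, 9.44, 9.31 and 9.37 at 3 days, and 9.25, 9.32 and 9.24 at 10 days. All 6 rats with ligation lay above all sham rats, and sham rat 2 was close below them. At 3 days the difference was 0.46 ± 0.12 (1.37-fold, interval from 0.19 to 0.73) with an adjusted p of 0.0848 in limma. Without sham rat 2 it was 0.61 and passed the test (adjusted p = 0.0159). At 10 days it was 0.35 ± 0.12 (adjusted p = 0.190), and from 3 to 10 days -0.10 ± 0.12 (adjusted p = 0.770).

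Blvrb, biliverdin reductase B, an enzyme downstream of haem breakdown (probeset 17614681), measured 5.22, 5.13 and 5.08 in sham, 5.60, 5.24 and 5.47 at 3 days, and 4.43, 5.06 and 5.20 at 10 days. The 3-day rats lay above all others, and 10-day rat 1 lay far below the rest. The differences were 0.29 ± 0.18 at 3 days (limma, adjusted p = 0.494), -0.25 ± 0.18 at 10 days (adjusted p = 0.528) and -0.54 ± 0.18 from 3 to 10 days (adjusted p = 0.320). Without 10-day rat 1 the 10-day difference was -0.02. Biliverdin reductase A (Blvra), from the list of haem breakdown partners, was picked out after its values were seen. Blvra differed by 0.59 ± 0.14 at 3 days (limma, adjusted p = 0.0614) and 0.48 ± 0.14 at 10 days (adjusted p = 0.138). All rats with ligation lay above all sham rats for Blvra. Cd163, the macrophage receptor that takes up haemoglobin bound to haptoglobin (probeset 17787031), measured 4.40, 4.23 and 4.42 in sham, 4.65, 4.22 and 5.11 at 3 days, and 4.68, 4.33 and 4.45 at 10 days. Its 3-day group held both the highest and the lowest array. The differences were 0.31 ± 0.19 at 3 days (adjusted p = 0.504, limma) and 0.14 ± 0.19 at 10 days (adjusted p = 0.778). The array with the highest Cd163, 3-day rat 3, also had the highest Clec4f (5.82, against 4.51 to 5.46 elsewhere) and Vsig4 (5.70, against 3.70 to 4.50). Of the other Kupffer cell markers, Cd5l, C6 and Cdh5 were also highest on this array, while Timd4, Marco, Id3 and Fcna were highest on others. The part of Kupffer cell RNA in the Cd163 value was not tested.

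Around these enzymes 3 more genes were called at 3 days, all upward: 1 of the 9 tested partners of haem breakdown and 2 of the 7 tested genes of haem and haemoglobin uptake, where 2.86% of all genes were called. The median differences of these lists were both 0.19, against -0.01 for all genes. Lrp1, the receptor of haem bound to haemopexin, measured 8.58, 8.90 and 8.85 in sham, 9.64, 9.78 and 9.48 at 3 days, and 9.50, 9.47 and 9.56 at 10 days. All rats with ligation lay above all sham rats. Lrp1 rose by 0.85 ± 0.10 at 3 days (limma, adjusted p = 0.00338) and by 0.74 ± 0.10 at 10 days (adjusted p = 0.0400). The 10-day call was lost when any of the 3 sham or 3 10-day arrays was left out (adjusted p from 0.0535 to 0.143) and with no filter (0.0511), all probesets (0.0740) or a replicate block (0.0780).

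Hp, haptoglobin, the plasma binder of free haemoglobin, measured 5.69, 5.97 and 6.17 in sham, 6.91, 6.45 and 6.65 at 3 days, and 6.17, 6.09 and 6.12 at 10 days. It rose by 0.72 ± 0.13 at 3 days (limma, adjusted p = 0.0225). Leaving out sham rat 1, sham rat 2, 3-day rat 1 or 3-day rat 3 ended the call (adjusted p from 0.0558 to 0.0697). Haptoglobin is also a major product of hepatocytes. Of 8 tested hepatocyte markers 0 were called at 3 days (limma), where 2.86% of all tested genes were called. Albumin measured 6.83 to 7.80 in sham and 7.30 to 9.01 at 3 days, and the part of hepatocyte RNA in the Hp value was not tested. Haemopexin (Hpx), picked out after its values were seen because its difference at 3 days lay beside that of Lrp1, differed by 0.80 ± 0.27 and did not pass (adjusted p = 0.178). It measured 6.06, 5.45 and 5.79 in sham and 6.25, 6.14 and 7.32 at 3 days. The highest, 3-day rat 3, also had the highest albumin (9.01). Of the other tested hepatocyte markers, Fgb and Ahsg were also highest on this array, while Ttr, Serpina1, Cyp2e1, Cps1 and Pck1 were highest on others. The part of hepatocyte RNA in the Hpx value was not tested. Por, the reductase that feeds electrons to haem oxygenase, measured 8.94, 9.08 and 9.06 in sham, 9.39, 9.52 and 9.32 at 3 days, and 9.30, 9.35 and 9.30 at 10 days. It rose by 0.38 ± 0.07 at 3 days (adjusted p = 0.0198), a call that ended without any 1 of the 3 sham rats or without 3-day rat 2 (adjusted p from 0.0512 to 0.0675). At 10 days the difference of Por was 0.28 ± 0.07 (adjusted p = 0.0875).

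**Figure D3:**
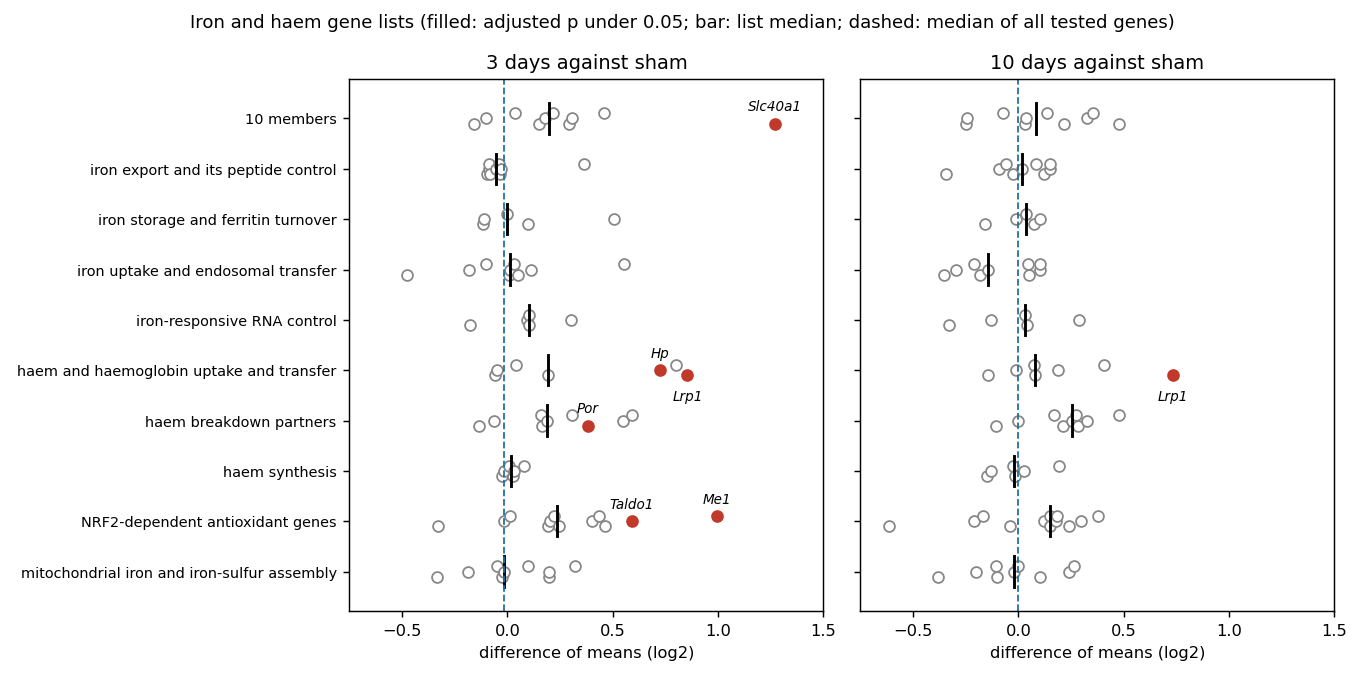
Differences from sham (log2) at 3 days (left) and 10 days (right) for every tested gene of the 10 members and of 9 lists of iron and haem genes. Filled points have an adjusted p under 0.05, black bars are list medians, and the dashed line is the median of all tested genes. Called genes at 3 days are Slc40a1, Lrp1, Hp, Por, Me1 and Taldo1, all to the right of 0, and at 10 days Lrp1.

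On the import side no gene was called. Tfrc, transferrin receptor 1 (probeset 17669755), measured 9.0, 8.89 and 9.03 in sham, 8.71, 8.87 and 8.87 at 3 days, and 8.64, 8.69 and 8.87 at 10 days. All rats with ligation lay below all sham rats, by a narrow margin. The differences were -0.16 ± 0.08 at 3 days (limma, adjusted p = 0.395) and -0.24 ± 0.08 at 10 days (adjusted p = 0.186, interval from -0.42 to -0.06). Slc11a1, also called NRAMP1, which moves metal ions out of the phagosome (probeset 17860366), measured 10.31, 10.46 and 10.54 in sham, 10.34, 10.88 and 10.73 at 3 days, and 10.86, 10.54 and 10.55 at 10 days. The 10-day rats lay narrowly above the sham rats, and 3-day rat 1 lay inside the sham range. Its differences from sham were 0.21 ± 0.14 and 0.22 ± 0.14 (adjusted p = 0.532 and 0.493). Hfe, which binds transferrin receptor 1 and takes part in iron sensing (probeset 17719486), measured 4.44, 4.37 and 4.21 in sham, 4.23, 4.02 and 4.47 at 3 days, and 4.25, 4.25 and 4.29 at 10 days. These values sat near the filter of 4.16 and overlapped, with differences of -0.10 ± 0.11 and -0.07 ± 0.11.

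Of 9 other tested genes of iron uptake 0 were called at either time, with a median difference of 0.01 at 3 days and -0.15 at 10 days. Cybrd1, a ferric reductase best known from the gut, measured 5.42, 5.40 and 5.46 in sham, 5.35, 5.23 and 5.16 at 3 days, and 5.14, 5.0 and 5.10 at 10 days. All rats with ligation lay below the sham rats. The 10-day difference of -0.35 ± 0.07 narrowly missed the threshold (limma, adjusted p = 0.0535), and it passed with a filter at the 50th percentile (0.0389), quantile normalization (0.0346) or array weights (0.0392). Cyb561a3, a lysosomal member of the same reductase family, differed by -0.48 ± 0.14 at 3 days (adjusted p = 0.120) and passed with array weights (0.0407) and without sham rat 1 (0.0304). Among the 5 tested genes of control by iron-responsive RNA elements 0 were called. Aco1, iron regulatory protein 1, differed by 0.30 ± 0.19 at 3 days and -0.13 ± 0.19 at 10 days. Epas1, the hypoxia factor whose message carries such an element, differed by -0.18 ± 0.14 and -0.33 ± 0.14 (adjusted p = 0.618 and 0.287).

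The antioxidant genes driven by NRF2, which also acts on Slc40a1 and Hmox1, held 2 called genes of 12 tested at 3 days, where 2.86% of all genes were called. The list median was 0.23, against -0.01 for all genes. Taldo1, an enzyme of the pentose phosphate pathway, measured 8.87, 9.17 and 8.94 in sham, 9.60, 9.66 and 9.48 at 3 days, and 9.37, 9.27 and 9.47 at 10 days. It rose by 0.59 ± 0.09 at 3 days (limma, adjusted p = 0.0114) and differed by 0.38 ± 0.09 at 10 days (adjusted p = 0.0897). Me1, the NADPH-producing malic enzyme, measured 4.49, 5.50 and 5.20 in sham, 6.15, 6.10 and 5.92 at 3 days, and 5.34, 5.28 and 5.28 at 10 days. It rose by 0.99 ± 0.21 at 3 days (adjusted p = 0.0361), but the sham rats spread over a range wider than this difference. The call held without sham rat 1 or sham rat 2 and ended without any other single array (adjusted p from 0.0615 to 0.114). Both are enzymes of carbon and NADPH metabolism. The other tested genes of the list, with glutathione and thioredoxin enzymes among them, were not called. Nearest to the threshold at 3 days were Tkt (0.44 ± 0.10), Gsr (0.40 ± 0.11) and Slc7a11 (0.46 ± 0.13). Their adjusted p-values were 0.0561, 0.0939 and 0.105 in limma. Of the 12 tested genes 10 differed upward at 3 days, and Osgin1 and Prdx1 downward.

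Haem synthesis (0 of 6 tested genes called) and mitochondrial iron handling (0 of 9) showed no call at any time in limma. Their median differences at 3 days were 0.02 and -0.02. Slc25a37, mitoferrin 1, which imports iron into mitochondria, differed by 0.32 ± 0.10 at 3 days and 0.26 ± 0.10 at 10 days (adjusted p = 0.149 and 0.240). Abcb10, a mitochondrial transporter that binds mitoferrin 1 in mouse, differed by 0.20 ± 0.09 and 0.24 ± 0.09. Uros and Alad, both enzymes of porphyrin assembly, differed by 0.01 ± 0.05 and -0.02 ± 0.11 at 3 days. Over all 9 lists, 5 of 71 tested genes rose and 0 fell at 3 days (7.04%, where 2.86% of all genes were called), 1 rose at 10 days (where 0.735% of all were called), and 0 were called between the days. The difference between these shares was not tested. Of 87 genes listed 77 were named on the array, and 6 of these lay below the filter.

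The members were also compared by whether the groups overlapped. At 3 days 4 of 10 did not overlap with sham (Slc40a1, Hmox1 and Blvrb above, Tfrc below), where 18.8% of all tested genes did not. At 10 days 5 of 10 did not overlap (Slc40a1, Hmox1, Slc11a1 and Cp above, Tfrc below), against 21.0%. Between the days 2 of 10 did not overlap, Slc40a1 and Blvrb, both lower at 10 days, against 14.6%. Exact permutation over 3 and 3 rats allows no p under 0.1, so these counts are a description. Rat-to-rat spread differed widely among the genes: the residual SD of Slc40a1 lay at percentile 95.4 of all tested genes, those of Cd163, Blvrb and Cp at percentiles 97.0, 96.0 and 93.8, and that of Ftl1 at percentile 6.62. A change of equal size was harder to call for Cd163 than for Ftl1.

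Across the 9 arrays the members most like Slc40a1 were Fth1 and Hmox1, with Pearson correlations of 0.80 each. Slc11a1 followed with 0.60, then Ftl1 with 0.54, Cd163 with 0.52, Cp with 0.41 and Blvrb with 0.27, while Hfe and Tfrc ran the other way with -0.35 and -0.44. Outside the 10 genes, the 6 with the highest correlation over the 9 arrays were Vim (0.981), Pld3 (0.976), Itgb7 (0.975), Slpi (0.967), Fuca1 (0.965) and Capg (0.963). These correlations describe 9 arrays in 3 groups, so they carry the group differences, and no test was made of them. Because the 6 were chosen for a profile that is high at 3 days, their differences are a description. At 3 days the difference was 1.20 for Slpi, a secreted protease inhibitor, and 1.01 for the lysosomal exonuclease Pld3. It was 0.80 for the actin-capping protein Capg, 0.68 for the integrin chain Itgb7, 0.59 for the lysosomal fucosidase Fuca1 and 0.26 for the intermediate filament protein vimentin (Vim). At 10 days the differences of the 6 ran from 0.11 to 0.46.

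**Figure D4:**
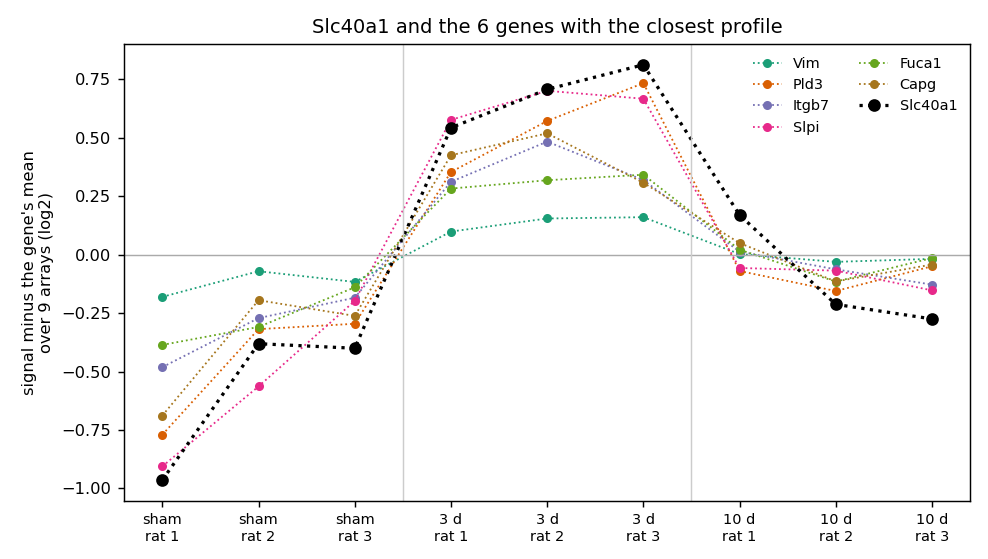
Signal of Slc40a1 (black) and of the 6 genes with the highest correlation to it, each minus its own mean over 9 arrays (log2), in every rat. Dotted lines only join the points of a gene, since rats of a group have no order. All 7 genes are lowest in sham rat 1 and higher in every 3-day rat than in any other rat.

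Several lists of cell type markers also differed between sham rats and rats with ligation on the same arrays. A list's score is the mean over its tested genes of the signal minus each gene's mean over 9 arrays. Beside the counts of called markers below, the share of all tested genes called was 2.86% at 3 days and 0.735% at 10 days. For recruited monocytes the score ran from -0.54 to -0.24 in sham, from 0.22 to 0.43 at 3 days and from -0.07 to 0.04 at 10 days, with no overlap between the 3 groups. At 3 days 4 of its 6 tested genes rose: the matrix genes Fn1 (1.31 ± 0.10) and Vcan (1.24 ± 0.17), the chemokine receptor Ccr2 (0.85 ± 0.17) and S100a4 (0.58 ± 0.13). The other tested genes, Plac8 (0.03 ± 0.06) and Cx3cr1 (0.22 ± 0.12), were not called. This list, like the others, was chosen with earlier results of these data known, so the separation of its score is only a description. From 3 to 10 days Fn1 fell by 0.78 (limma, adjusted p = 0.0324). For general macrophage genes the score ran from -0.43 to -0.19 in sham, from 0.10 to 0.28 at 3 days and from -0.01 to 0.20 at 10 days. At 3 days 4 of these 10 rose, namely Itgam, Cd14, Aif1 and Lyz2, by 0.37 to 0.92, and at 10 days Itgam rose (0.78 ± 0.11, adjusted p = 0.0414, limma). Mpeg1 went the other way at 3 days, by -0.25 ± 0.10, and was not called (limma, adjusted p = 0.240). Neutrophil markers ran from -0.92 to 0.16 in sham, from -0.01 to 0.62 at 3 days and from -0.45 to 0.08 at 10 days, with overlap between the groups. Their median difference at 3 days, 0.84, was the largest of the 11 marker lists. Of the 7 tested, 5 differed upward and the others downward, and their mean difference was 0.57. Of 7 tested 1 was called at 3 days, the growth factor receptor Csf3r, which rose by 1.04 ± 0.21 (adjusted p = 0.0326), while S100a8 and S100a9 differed by 1.19 ± 0.42 and 1.20 ± 0.49 (limma, adjusted p = 0.191 and 0.268). T cell and natural killer cell markers ran the other way, from 0.18 to 0.38 in sham, from -0.11 to -0.01 at 3 days and from -0.33 to -0.16 at 10 days, and of 8 tested 0 were called at 3 days and 1 at 10 days in limma, Cd5, which fell by 0.58 (adjusted p = 0.0449). B cell markers ran from -0.42 to -0.27 in sham, from -0.08 to 0.33 at 3 days and from 0.07 to 0.49 at 10 days, and 1 of 4, Cr2, rose at 3 days.

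Of 9 Kupffer cell markers 1 was called at 3 days, the ficolin Fcna, which rose by 0.75 ± 0.08 and was called at 10 days too (0.52 ± 0.08, limma, adjusted p = 0.0449). Of all tested genes 2.86% were called at 3 days and 0.735% at 10 days. The score of the Kupffer cell markers ran from -0.22 to -0.06 in sham and from -0.07 to 0.44 at 3 days. Red cell and erythroid markers ran from -0.09 to -0.01 in sham, from -0.04 to 0.13 at 3 days and from -0.13 to 0.17 at 10 days, and 0 of 12 were called in limma. In sham rat 1, the array with the lowest Slc40a1, the scores of general macrophage, recruited monocyte and neutrophil markers were also the lowest of all arrays (-0.43, -0.54 and -0.92). In RNA from a cell preparation, more cells of a type and more RNA per cell cannot be told apart, and the part of these shifts in the Slc40a1 difference was not tested.

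**Figure D5:**
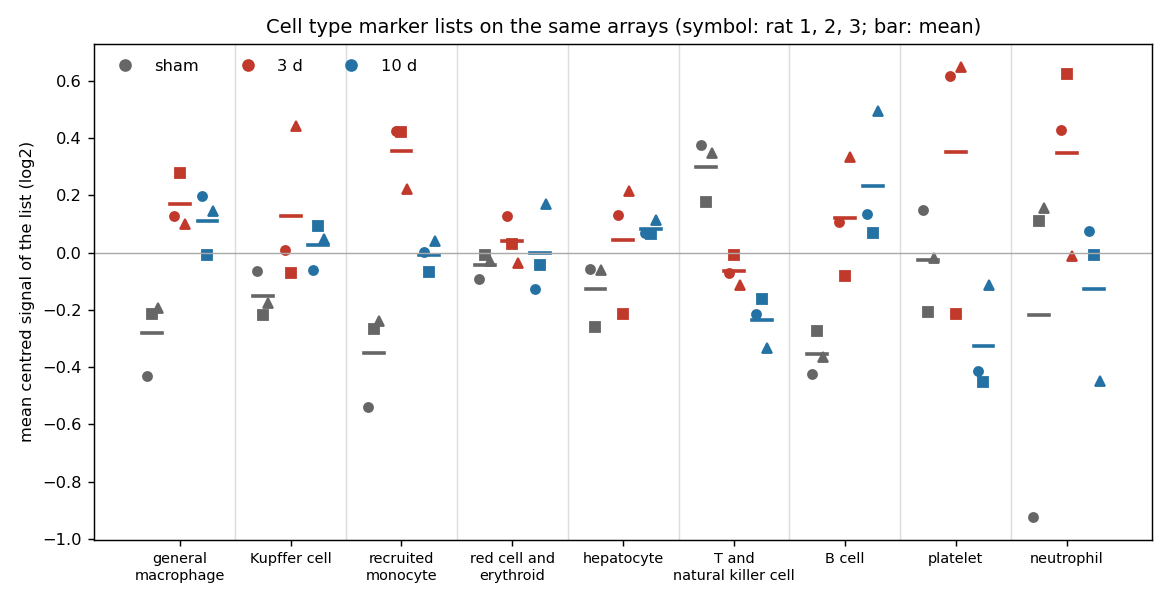
Mean centred signal (log2) of 9 lists of cell type markers in each rat, with sham in grey, 3 days in red and 10 days in blue, and bars at group means. The recruited monocyte list spans -0.54 to -0.24 in sham and 0.22 to 0.43 at 3 days, the T and natural killer cell list runs the other way, and the red cell list stays between -0.13 and 0.17.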

How the data were processed

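Total RNA from hepatic macrophages of 9 rats, 3 a group, was hybridised to Affymetrix arrays with 36685 probesets. The deposited values are log2 signals that the authors made with robust multi-array average (RMA), and the submitters' processing notes name RMA and Transcriptome Analysis Console. Their versions and the genome build are not given in the sources used here. Groups came from the labels.

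Probesets with 1 gene symbol in the platform annotation (18511) gave 18166 genes, each taken at its highest-mean probeset. The 575 probesets with several symbols and 17599 with none were left out. Tested genes had a mean no lower than the 30th percentile (4.16). One model per gene was fitted to all 9 arrays with limma 3.58.1 in R 4.3.3 (6 residual and 3.59 prior degrees of freedom, 2-sided, tested on simulated data). P-values measure spread between rats, and 3 arrays a group limit the precision.

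Alternatives were another filter (none, or the 50th percentile), probeset means, all probesets, quantile normalization, trended robust moderation, array weights, a replicate block, 2-group fits and leaving out each array. The alternatives for genes outside the 10 members were added after the data were seen. The members and lists were chosen with earlier results of these data known. Named beside the members were list genes called in any comparison, otherwise the 2 of a list with the smallest F test p, and the 6 genes most correlated with Slc40a1. Of 194 genes listed, 27 were not named on the array. Promoters came from RefSeq (GRCr8), and the motif letters were matched on both strands.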

Additional observations from a re-analysis of the deposited data

How the results depend on the processing

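The call of Slc40a1 at 3 days held in 18 of 18 alternatives, with differences from 1.08 to 1.37 and adjusted p up to 0.0325. Of 158 values of the other members at 3 days, 1 crossed the threshold, Hmox1 without sham rat 2, which made 2 members called. None crossed it at 10 days or between the days. The calls of Hp, Por and Me1 at 3 days also ended with all probesets (adjusted p = 0.0720, 0.0639 and 0.104) and with only the 2 groups in the fit (0.0961, 0.0744 and 0.127), and those of Hp and Me1 with the replicate block (0.0557 and 0.0617).

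Counts of called genes depended on the processing, and all are from limma. At 3 days 401 became 191 with all probesets, 264 with the replicate block, 134 with only the 2 groups in the fit and 190 to 327 with an array left out. At 10 days 103 became 0 with no filter, with all probesets and with the replicate block, 173 with the 50th percentile filter and with trended robust moderation, 170 after quantile normalization, 197 with array weights, 61 with 2 groups and 0 to 140 with an array left out. Between the days 10 became 0 with all probesets and with the block, 3 with 2 groups and 0 to 18 with an array left out. The F test's 329 became 81 with all probesets, 118 with the block and 54 to 290 with an array left out. As first fitted 2171, 2271 and 1578 genes had an unadjusted p under 0.05 in the 3 comparisons. Deviations from the group means gave no sign that replicate numbers pair the rats (correlations from -0.095 to 0.084 in 9 same-numbered pairs, 0 over 0.1). Of 18 other-numbered pairs 1 was over 0.1, and with 3 arrays a group this check cannot exclude a pairing.

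Some differences near 0, none of them called, changed sign when an array was left out, and each range is over the 9 arrays. At 3 days these were Alad (-0.12 to 0.043, and 0.016 with array weights), Uros (-0.019 to 0.026), Heph (-0.14 to 0.0081), Hfe (-0.22 to 0.0067) and Tmprss6 (-0.21 to 0.027). At 10 days they were Fth1 (-0.018 to 0.065), Ftl1 (-0.0018 to 0.060), Me1 (-0.048 to 0.46), Timd2 (-0.023 to 0.20) and Aco1 (-0.24 to 0.086). Between the days they were Ftl1 (-0.039 to 0.023, and 0.053 after quantile normalization), Hfe (-0.082 to 0.14, and -0.019 after quantile normalization), Slc11a1 (-0.15 to 0.12), Cp (-0.026 to 0.32) and Cd163 (-0.39 to 0.054). The cause was not tested. For the dim genes Cp, Cd163, Blvrb and Hfe the signal over background limits what a difference can show.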
